A study of Monascus purpureus with 6 samples.

Results

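The table of counts for Monascus purpureus, a filamentous fungus grown for its red pigments and able to make ethanol, held 9836 rows. Of these, 9151 carried the locus tags of an annotation and 685 carried identifiers that start with NewGene instead. Only identifiers were compared, so whether these 685 loci overlap annotated genes was not checked. This account describes the 121 NewGene rows whose mean raw count over all libraries was at least 200, called added genes here. They were set beside the 6752 annotated genes that passed the same cut-off. The members were chosen by their mean raw count, so their levels are a description. The contrast between the groups was not a criterion, but the mean over all libraries bears on it. In 11 members the control mean was under 200, so they passed only through their metal-ion libraries, and 0 members had a metal-ion mean under 200.

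Libraries were made from mycelia of wild-type strain MP2022, all on day 1. The metal-ion group, whose titles speak of an optimized condition, had 3 libraries and a label of 0.0 g/L zinc sulphate dihydrate with 2.5 g/L magnesium sulphate dihydrate. The control group had 3 libraries and a label that gives 2.0 g/L zinc and 1.0 g/L magnesium salt but also the word untreated, so the metal content of its medium cannot be read from it. The question behind the comparison was which ratio of zinc to magnesium favours ethanol and pigments together. Whether libraries of the same group stem from different cultures is not stated, and p-values therefore reflect only the spread between these libraries, which may be technical.

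Gene models of fungi are mostly predicted from open reading frames, and they can miss RNAs that code for no protein, short reading frames, mobile elements and parts of untranslated regions. When RNA-seq reads are assembled against a genome, such transcribed stretches appear as extra loci beside the annotated genes. Zinc serves as a structural or catalytic ion in many fungal enzymes and transcription factors, and magnesium binds ATP, ribosomes and many enzymes. No source used here pairs a NewGene identifier with a position, a sequence or a product, so the added genes are described by their identifiers and measurements alone. The library kit did not mark the strand, so reads of an added gene and of any gene that overlaps it cannot be told apart.

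The metal-ion libraries held 35314601 to 38927910 counts and the control libraries 33638067 to 36537672. Metal-ion replicate 2 stood apart from its group. It was the lowest of the metal-ion libraries in 69 of the 121 added genes (57.0%) and in 35.3% of the annotated genes above the cut-off, and it was the highest in 26 added genes and in 42.7% of those annotated genes. None of the 10 listed regulators of asexual spore formation matched a symbol in the annotation. Of 10 listed genes of hyphal growth and wall, GEL1 and GEL2, named for enzymes that elongate wall glucan, were matched, at 252 to 278 and 186 to 189 FPKM in metal-ion libraries and 299 to 322 and 207 to 218 FPKM in control libraries. With no spore regulator to set against them, GEL1 and GEL2 alone cannot check that the libraries held mycelium as labelled.

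Added genes were rarely abundant. Of the 685 NewGene rows, 121 (17.7%) reached a mean count of 200, against 73.8% of annotated genes, and 150 had a mean count under 10. They made up 6.96% of all rows but 1.76% of the rows above the cut-off. The least abundant members were NewGene_491 and NewGene_136, with mean counts of 202 and 204, and the NewGene rows just below the cut-off were NewGene_86 and NewGene_518, with 199 and 198.5.

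All NewGene rows together took 0.679, 0.597 and 0.733% of counts in metal-ion libraries 1 to 3 and 0.606, 0.611 and 0.631% in control libraries 1 to 3. The members took 0.591 ± 0.0596% in metal-ion and 0.551 ± 0.0109% in control libraries (SD, n = 3 each). A single gene, NewGene_80, held 0.213 ± 0.0482% in metal-ion and 0.242 ± 0.00678% in control libraries. The other 120 members together had 0.400, 0.352 and 0.382% in metal-ion libraries and 0.300, 0.302 and 0.327% in control libraries. Without NewGene_80, left out after its values were seen, every metal-ion library lay above every control library, whereas the shares of all NewGene rows overlapped. These 120 members include the 11 that passed the cut-off only through metal-ion libraries, and no share was computed without them. With scaling to total counts only, as in these shares, the median log2 fold change was also above 0 elsewhere. It was 0.10 over annotated genes above the cut-off and 0.14 over all tested genes.

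On the FPKM scale, which divides counts by gene length and library size, the added genes had a median of 7.95 with quartiles of 5.19 and 15.4. The annotated genes above the cut-off had a median of 27.3 with quartiles of 13.2 and 64.5. Of the added genes, 92 had at least 5 FPKM, 46 at least 10 FPKM and 5 at least 100 FPKM. The share with at least 10 FPKM was 38.0% of added genes and 82.3% of annotated genes above the cut-off.

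An implied length was computed for each gene as its count over its FPKM and over the library total. This length rests on the sum of deposited counts as the library total, which may differ from the total the authors used. The added genes had a median implied length of 1765 bases with quartiles of 1244 and 2805 bases, and the annotated genes had a median of 1790 bases with quartiles of 1162 and 2696 bases. The distributions thus lay close together, apart from the short end. No added gene was shorter than 500 bases, against 4.87% of annotated genes, and among all 685 NewGene rows, most of them below the cut-off, the median was 967 bases.

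**Figure D1:**
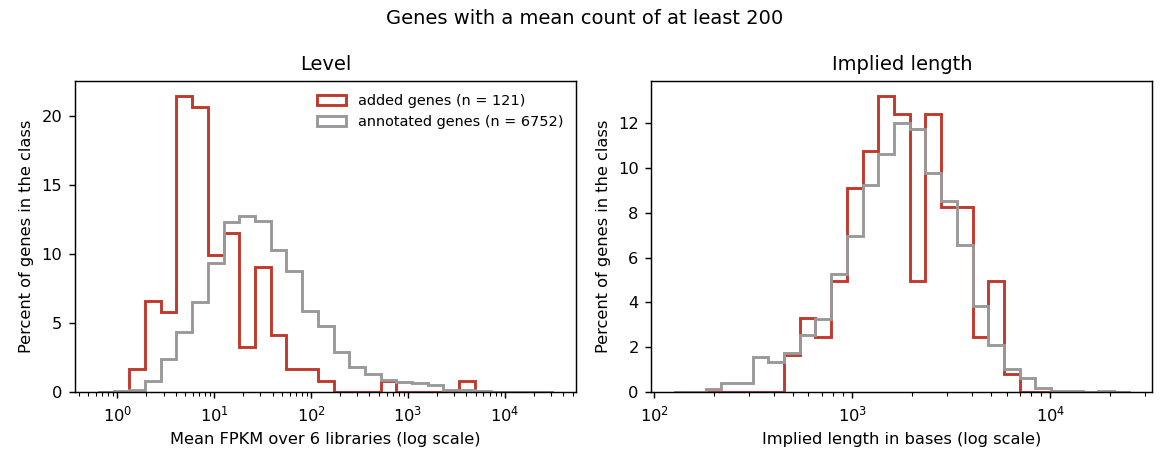
Percent of added genes (red, n = 121) and annotated genes (grey, n = 6752) by mean FPKM over 6 libraries (left) and by implied length in bases (right), both on log axes, for genes with a mean count of at least 200. Added genes have a lower median level, 7.95 against 27.3 FPKM, and a similar median implied length, 1765 against 1790 bases.

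The shortest members were NewGene_841, at 532 bases, and NewGene_68, at 538 bases. NewGene_80, the most abundant, came next but one at 592 bases, and NewGene_881, the second most abundant, had 625 bases. The longest were NewGene_207, at 6054 bases, and NewGene_792, at 5651 bases. NewGene_792 had 4.02, 3.79 and 4.43 FPKM in metal-ion libraries and 3.47, 3.03 and 4.06 FPKM in control libraries. NewGene_841 had 27.2, 18.7 and 31.3 FPKM in metal-ion libraries and 24.6, 16.4 and 20.4 FPKM in control libraries. For both genes the groups overlapped.

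The implied length of a gene should be the same in every library if FPKM is a count divided by a fixed length. In annotated genes above the cut-off the longest and shortest values over the 6 libraries differed by a median of 1.35%, and 2.49% of genes differed by over 2%. In added genes the median difference was 1.49%, but 42 of 121 (34.7%) differed by over 2% and 20 (16.5%) by over 5%, against 0.370% of annotated genes. These thresholds and the genes named next were chosen after the values were seen. For such genes FPKM and counts can give different changes between the groups. Added genes had lower counts, with a median of 517 against 1783 in annotated genes above the cut-off. The differences in implied length were not compared between genes of like counts.

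NewGene_675 had implied lengths of 1247, 1925 and 1249 bases in metal-ion libraries and 1287, 1503 and 1647 bases in control libraries, a difference of 54.4%. NewGene_468 had 1174, 1124 and 1070 bases in metal-ion libraries and 1536, 1641 and 1532 bases in control libraries, so every metal-ion value lay below every control value. Its log2 ratio of mean metal-ion to mean control values was 0.89 on FPKM and 0.40 on counts scaled to the library total. NewGene_872 had 1738, 1724 and 1761 bases in metal-ion libraries and 2157, 1850 and 2118 bases in control libraries, with log2 ratios of 0.80 on FPKM and 0.57 on scaled counts. In 3 of the 121 members, NewGene_468, NewGene_872 and NewGene_675, the log2 ratios differed by more than 0.1. What sets the difference was not tested.

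NewGene_80 ranked 13th by mean FPKM among all 9836 rows and 36th by mean count. It had 3250, 3016 and 4524 FPKM in metal-ion libraries and 4045, 4209 and 3993 FPKM in control libraries. On this scale metal-ion replicates 1 and 2 lay below all control libraries and replicate 3 above them. After TMM scaling, as in the fit, metal-ion replicate 3 lay within the control range. The log2 fold change of -0.29 ± 0.16 (SE) did not pass (edgeR adjusted p = 0.254). It was -0.50 without metal-ion replicate 3 and -0.19 without metal-ion replicate 1 (edgeR adjusted p = 0.0706 and 0.504). NewGene_881 had 524, 631 and 611 FPKM in metal-ion libraries and 539, 572 and 535 FPKM in control libraries. The groups overlapped, and the log2 fold change of -0.00 ± 0.13 did not pass (edgeR adjusted p = 0.988).

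The next 4 genes by level were much less abundant. NewGene_323 had 182, 141 and 155 FPKM in metal-ion libraries and 130, 122 and 118 FPKM in control libraries. Its metal-ion libraries all lay above the control libraries, but the log2 fold change of 0.25 ± 0.10 did not pass (edgeR adjusted p = 0.114). NewGene_521 had 100.4, 117 and 97.3 FPKM in metal-ion libraries and 116, 131 and 116 FPKM in control libraries. After TMM scaling its metal-ion libraries all lay below the control libraries, and the log2 fold change of -0.32 ± 0.12 did not pass (edgeR adjusted p = 0.111).

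NewGene_752 had 64.7, 68.8 and 68.0 FPKM in metal-ion libraries and 55.7, 48.5 and 62.7 FPKM in control libraries, with a log2 fold change of 0.17 ± 0.11 that did not pass (edgeR adjusted p = 0.375). This value was 0.073 without control replicate 2, 0.094 without metal-ion replicate 2 and 0.26 without control replicate 3 (edgeR adjusted p = 0.790, 0.534 and 0.237). NewGene_323 and NewGene_521 passed once metal-ion replicate 2 was left out, with log2 fold changes of 0.29 for NewGene_323 and -0.45 for NewGene_521 (edgeR adjusted p = 0.0265 and 0.00282).

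**Figure D2:**
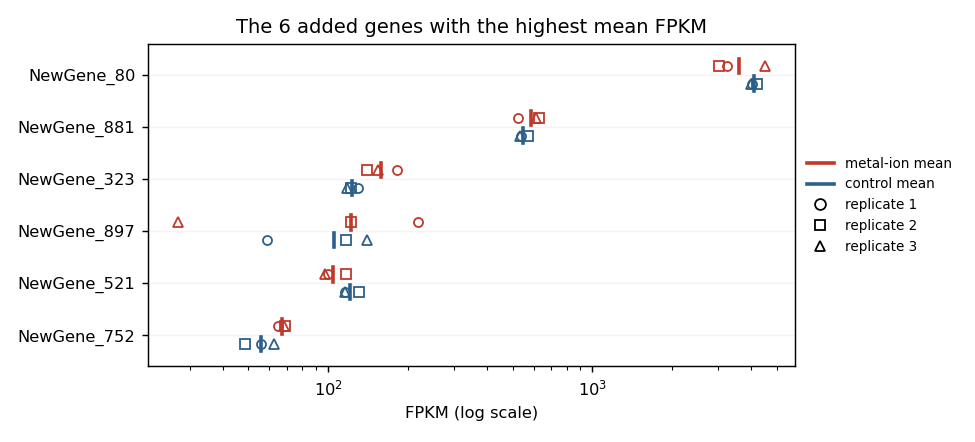
FPKM on a log axis in each library for the 6 added genes with the highest mean FPKM, with metal-ion libraries in red above control libraries in blue, symbols for replicate numbers and bars for group means. NewGene_80 lies between 3016 and 4524 FPKM, and NewGene_897 spans 26.9 to 219 FPKM within the metal-ion group.

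Replicates of added genes had larger CVs than those of annotated genes above the cut-off, a difference that was described and not tested. The CV, or coefficient of variation, is the SD as a percent of the mean. For CPM, counts per library total scaled by the TMM factor of edgeR, it had a median of 15.3% in metal-ion and 12.0% in control libraries for added genes, and of 11.3% in metal-ion and 6.41% in control libraries for annotated genes. Averaged over both groups, the CV exceeded 25% in 13 added genes (10.7%) and in 2.01% of annotated genes. Averaged over both groups, the median CV was 12.7% for added and 9.34% for annotated genes. Counts were lower in added genes, and between genes of like counts the gap was smaller in the lower and middle count classes but not in the highest. Among genes with a mean count from 200 to under 500 the median CV was 16.0% for 58 added genes and 13.8% for 1006 annotated genes, from 500 to under 2000 it was 11.9% for 50 added and 9.59% for 2641 annotated genes, and from 2000 it was 11.5% for 13 added and 7.88% for 3105 annotated genes. The biological coefficient of variation that edgeR assigned to each gene had a median of 0.166 for added and 0.160 for annotated genes in the lowest of these classes and 0.113 and 0.102 in the highest.

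In 3 members (2.48%) the CV averaged over both groups was above 50%, against 0.0889% of annotated genes above the cut-off. NewGene_897, at a mean count of 6427, had 219, 122 and 26.9 FPKM in metal-ion libraries and 59.0, 117 and 140 FPKM in control libraries. Metal-ion replicate 1 was the highest and metal-ion replicate 3 the lowest of all 6, with 12178 and 1505 counts, so the scatter within the metal-ion group spanned the whole control group. Its log2 fold change of 0.08 ± 0.54 did not pass (edgeR adjusted p = 0.940), and it was 0.55 without metal-ion replicate 3 and -0.54 without metal-ion replicate 1.

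NewGene_207 had 383, 817 and 721 counts in metal-ion libraries and 94, 921 and 167 counts in control libraries. Control replicate 2 was the highest of all 6 libraries while the other control libraries were the lowest. The log2 fold change of 0.56 ± 0.64 did not pass (edgeR adjusted p = 0.601), but without control replicate 2 it was 2.07 and passed (edgeR adjusted p = 0.0160).

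NewGene_208 had 634, 281 and 89 counts in metal-ion libraries and 902, 135 and 798 counts in control libraries. Control replicate 2 was here the lowest of its group, and the log2 fold change of -1.10 ± 0.68 did not pass (edgeR adjusted p = 0.313). It was -1.93 without metal-ion replicate 1, -0.66 without metal-ion replicate 3 and -0.71 without control replicate 1 (edgeR adjusted p = 0.177, 0.615 and 0.623). NewGene_349, the next most variable member and chosen after its values were seen, had 150, 366 and 259 counts in metal-ion libraries and 130, 327 and 154 counts in control libraries, with replicate 2 the highest of each group.

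At the other end, NewGene_542 had 19.6, 18.8 and 19.0 FPKM in metal-ion libraries and 18.4, 18.7 and 18.5 FPKM in control libraries. NewGene_170 had 8.78, 8.13 and 8.27 FPKM in metal-ion libraries and 8.43, 8.90 and 8.34 FPKM in control libraries. Both had CVs of TMM-scaled CPM under 5% in each group, 4.36 and 1.62% for NewGene_542 and 2.67 and 4.55% for NewGene_170 in metal-ion and control libraries. Their log2 fold changes of -0.07 ± 0.11 and -0.14 ± 0.10 did not pass (edgeR adjusted p = 0.719 and 0.397).

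**Figure D3:**
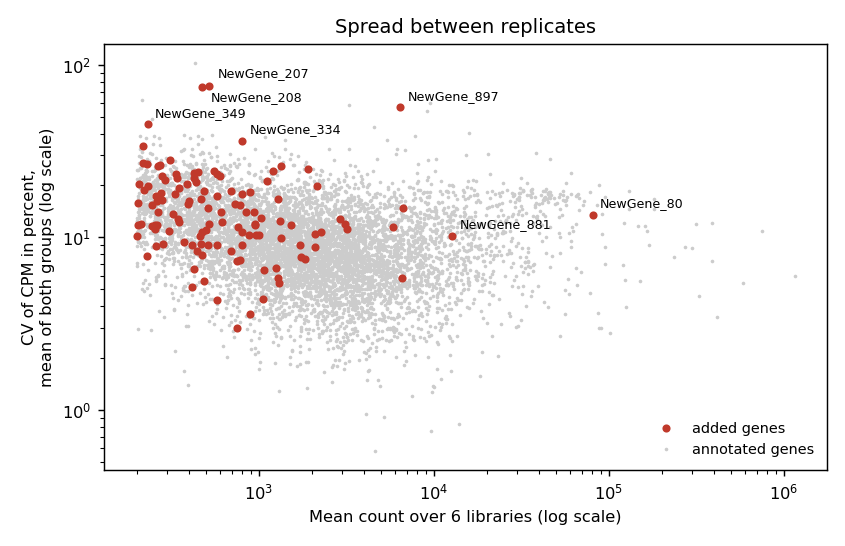
Coefficient of variation of TMM-scaled CPM in percent, averaged over both groups, against the mean count over 6 libraries, both on log axes, with added genes in red and annotated genes in grey. NewGene_207, NewGene_208 and NewGene_897 lie above 50%, and NewGene_897 stands out at its count of 6427.

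Of the 121 added genes, 13 (10.7%) changed between metal-ion and control mycelia, 12 up and 1 down, against a background of 12.0% of all 9048 tested genes (edgeR quasi-likelihood test, Benjamini-Hochberg adjusted p under 0.05 over all tested genes). The share was near the background, and the corresponding share was 14.8% of the 6751 tested annotated genes above the cut-off. By direction, 9.92% of added genes rose and 0.826% fell, beside 6.66% and 5.32% of all tested genes and 7.82% and 6.95% of the annotated genes. Of the 11 members with a control mean count under 200, 3 were called, NewGene_128, NewGene_497 and NewGene_503. All 3 rose, but the cut-off favoured that direction in these 11, so the direction is no result about them. Of the 110 members with a mean of at least 200 in each group, 10 were called (9.09%), 9 up and 1 down, beside the 12.0% of all tested genes. Changes of at least 2-fold were called in 3 added genes (2.48%), NewGene_128, NewGene_731 and NewGene_334, beside 2.83% of all tested genes. The groups did not overlap in 34 added genes (28.1%), 25 higher (20.7%) and 9 lower (7.44%) in metal-ion libraries, beside 33.3% of all tested genes, 17.3% higher and 16.0% lower. An unadjusted p under 0.05 was reached by 39 added genes, 34 higher (28.1%) and 5 lower (4.13%) in metal-ion libraries, which is 32.2% beside 29.0% of all tested genes, 15.5% higher and 13.5% lower.

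Most added genes had a fitted change above 0, most of them without passing the test. Their median log2 fold change, metal-ion over control, was 0.17, with quartiles of -0.00 and 0.37, and 90 of 121 (74.4%) were above 0. The 11 members that passed the cut-off only through metal-ion libraries are among these 121, and over the other 110 the median was 0.17 with 80 (72.7%) above 0. The median was 0.03 over all tested genes, of which 53.3% were above 0, and -0.01 over annotated genes above the cut-off, of which 48.2% were. In classes of like counts the added genes had medians of 0.17, 0.17 and 0.23 in the classes of 200 to under 500, 500 to under 2000 and 2000 or more counts, and the annotated genes 0.13, -0.00 and -0.05. With scaling to total counts only, the median was 0.28 over added genes and 0.14 over all tested genes, so both moved by 0.11. Without metal-ion replicate 2, 35 added genes passed (28.9%), 31 up (25.6%) and 4 down (3.31%). Of all genes tested in that fit 31.0% passed, 14.4% up and 16.5% down. Without any other single library 2 to 8 added genes passed (1.65 to 6.61%), beside 3.81 to 5.18% of all genes tested in those fits.

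**Figure D4:**
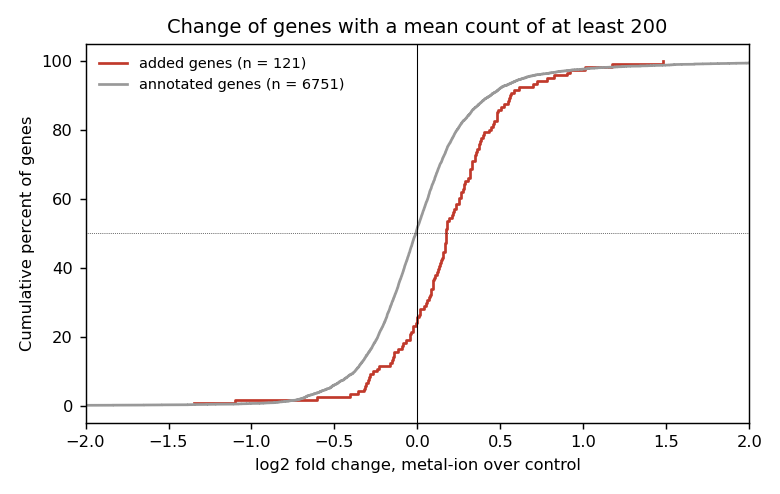
Cumulative percent of genes against the fitted log2 fold change, metal-ion over control, for added genes (red, n = 121) and annotated genes above the count cut-off (grey, n = 6751); 43 annotated genes lie beyond the axis, which ends at 2 on either side. The curve of the added genes crosses 50% at 0.17 and that of the annotated genes at -0.01.

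NewGene_128 rose most. It had 399, 391 and 391 counts in metal-ion libraries and 105, 128 and 140 counts in control libraries, or 5.96 ± 0.365 FPKM in metal-ion and 2.01 ± 0.315 FPKM in control mycelia (SD, n = 3 each). All metal-ion libraries lay well above all control libraries, and the log2 fold change was 1.48 ± 0.18 (SE; edgeR adjusted p = 0.000493). Its control mean count was 124, so it was a member only through its metal-ion libraries. Its implied length was 1801 bases and differed by 7.18% between libraries.

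NewGene_731 had 25.2, 21.3 and 31.6 FPKM in metal-ion libraries and 10.3, 10.2 and 11.8 FPKM in control libraries. The groups did not overlap, and the log2 fold change was 1.17 ± 0.14 (edgeR adjusted p = 0.000521). Only NewGene_128 and NewGene_731 among the 13 passed under every one of the 14 alternative fits.

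NewGene_334 was the single added gene that fell. It had 10.5, 3.04 and 9.77 FPKM in metal-ion libraries and 20.1, 17.7 and 14.4 FPKM in control libraries. Metal-ion replicate 2 was far below the other libraries of its group, with 176 counts against 677 and 634, and its implied length was 1488 bases there and 1829 to 1852 bases in the other 5 libraries. The log2 fold change of -1.34 ± 0.38 passed (edgeR adjusted p = 0.0444), and was -0.94 without metal-ion replicate 2 (edgeR adjusted p = 0.000543). It lost its call in 10 of the 14 alternative fits, among them those without any one of the other 5 libraries and DESeq2 (highest adjusted p = 0.147).

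NewGene_497 had 10.3, 5.95 and 8.37 FPKM in metal-ion libraries and 3.25, 3.08 and 5.63 FPKM in control libraries, a log2 fold change of 0.92 ± 0.25 (edgeR adjusted p = 0.0406). Its control mean count was under 200, so it was a member only through its metal-ion libraries. NewGene_70 had 8.85, 6.55 and 10.5 FPKM in metal-ion libraries and 4.03, 3.24 and 5.55 FPKM in control libraries, a log2 fold change of 0.90 ± 0.22 (edgeR adjusted p = 0.0268). In both genes metal-ion replicate 2 was the lowest of its group and control replicate 3 the highest of its own, and they came close. NewGene_90 had 8.03, 6.44 and 7.19 FPKM in metal-ion libraries and 3.996, 3.03 and 4.60 FPKM in control libraries, a log2 fold change of 0.78 ± 0.17 (edgeR adjusted p = 0.0192). These 3 genes no longer passed when metal-ion replicate 1 or 3, or control replicate 1 or 2, was left out.

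NewGene_503 had 2.61, 2.14 and 2.80 FPKM in metal-ion libraries and 1.21, 1.48 and 1.24 FPKM in control libraries, with no overlap and a log2 fold change of 0.83 ± 0.18 (edgeR adjusted p = 0.0163). It is among the longer members, at 3726 bases, and no longer passed when metal-ion replicate 3, or control replicate 1 or 3, was left out. NewGene_503 also had a control mean count under 200 and was a member only through its metal-ion libraries. NewGene_867 had 9.27, 11.9 and 10.97 FPKM in metal-ion libraries and 6.08, 5.95 and 6.51 FPKM in control libraries, a log2 fold change of 0.70 ± 0.16 (edgeR adjusted p = 0.0202).

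NewGene_597 was the most abundant added gene that rose. It had 58.4, 79.8 and 80.9 FPKM in metal-ion libraries and 44.8, 38.4 and 40.8 FPKM in control libraries, or 231 ± 52.2 CPM in metal-ion and 140 ± 9.81 CPM in control mycelia (SD, n = 3 each). Metal-ion replicate 1 was here the library nearest to control, and the log2 fold change was 0.72 ± 0.16 (edgeR adjusted p = 0.0162). NewGene_597 and NewGene_867 no longer passed when metal-ion replicate 3, or any control replicate, was left out.

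The other 4 genes that rose did so by less. NewGene_68, among the shortest members, had 37.5, 27.7 and 34.9 FPKM in metal-ion libraries and 24.3, 18.4 and 19.8 FPKM in control libraries, a log2 fold change of 0.56 ± 0.15 (edgeR adjusted p = 0.0372). NewGene_21 had 37.0, 34.2 and 37.05 FPKM in metal-ion libraries and 21.7, 20.4 and 25.1 FPKM in control libraries, a log2 fold change of 0.55 ± 0.10 (edgeR adjusted p = 0.00805). NewGene_688 and NewGene_277 rose by 0.58 ± 0.16 and 0.46 ± 0.12 on the log2 scale (edgeR adjusted p = 0.0444 and 0.0395). NewGene_68 and NewGene_688 lost their call without any single library other than metal-ion replicate 2, NewGene_688 also with limma on FPKM, NewGene_277 without metal-ion replicate 3 or control replicate 1 or 2, and NewGene_21 without control replicate 1 or 2.

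**Figure D5:**
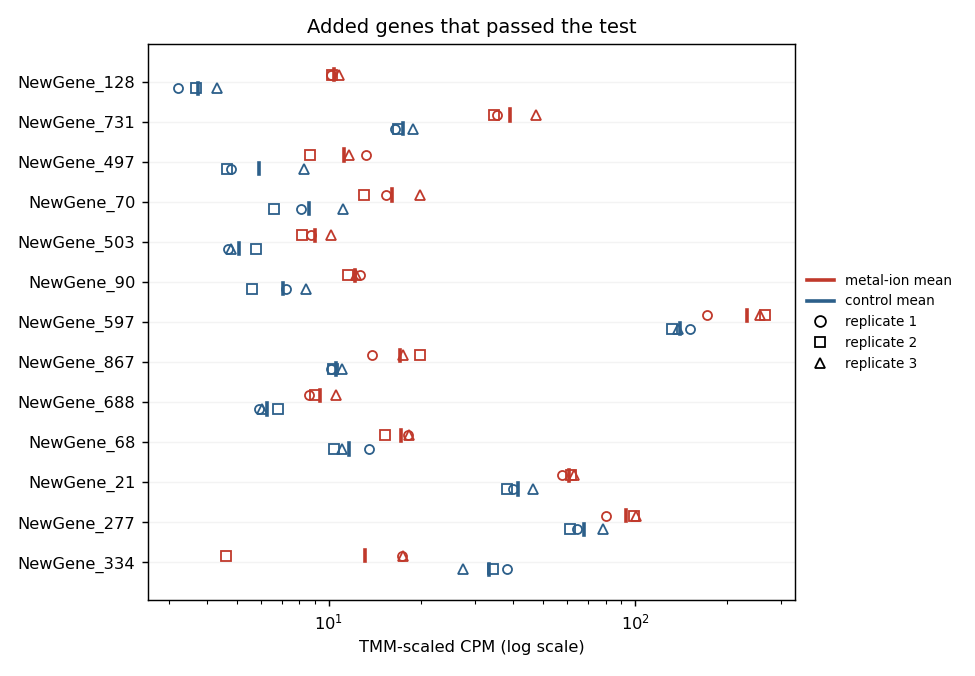
TMM-scaled CPM on a log axis in each library for the 13 added genes that passed the test, ordered by log2 fold change, with metal-ion libraries in red above control libraries in blue, symbols for replicate numbers and bars for group means. NewGene_128 at the top has the widest gap between groups, and in NewGene_334 at the bottom metal-ion replicate 2 lies far below the other libraries.

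A further 21 added genes had groups that did not overlap but did not pass, 13 of them higher and 8 lower in metal-ion libraries. Such genes were common throughout. Groups did not overlap in 33.3% of all tested genes and 12.0% passed, beside 28.1% and 10.7% of added genes. NewGene_862 had the largest log2 fold change among the added genes that missed the threshold upward, at 1.01 ± 0.31 (edgeR adjusted p = 0.0577), and was singled out after its values were seen. It had 339, 218 and 343 counts in metal-ion libraries and 80, 200 and 117 counts in control libraries, so that after TMM scaling metal-ion replicate 2 overlapped control replicate 2. Its control mean count was under 200, so NewGene_862 was a member only through its metal-ion libraries. The cut-off favoured the upward direction for it.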

How the data were processed

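RNA was sequenced from 6 libraries of mycelia. Per the labels' protocols, libraries came from enriched and fragmented mRNA with a kit that does not mark the strand. TopHat2 was used, per the submitters' processing notes; the counting tool, genome build, annotation and the way NewGene rows were defined are not given in the sources used here. Whole-number counts per gene and FPKM values, which scale counts by length and depth, were deposited for 9836 rows. Columns were matched through the sample descriptions and titles.

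The quasi-likelihood test of edgeR 4.0.16 (R 4.3.3) was fitted on the deposited counts of all genes, with TMM factors, filterByExpr and Benjamini-Hochberg adjustment over 9048 tested genes; 788 were left out, and all 121 members were tested. CPM are TMM-scaled, while FPKM are as deposited, so FPKM and fitted fold changes can differ. A standard error is the fold change over the square root of its F statistic. Every pair of replicates differed beyond sampling noise (chi-square per gene of 36.7 to 118 in metal-ion and 14.3 to 21.7 in control libraries), so no pair was taken for repeat deposits of the same library, which does not show that they came from separate cultures. The fit was tested on simulated data in a single draw. False calls there made up a clearly larger share than the threshold allows. Changes of every simulated size were missed in part, the smallest most often.

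Members, lists and tests were chosen with earlier results of these data known. Named members are the 6 with the highest mean FPKM, up to 8 called genes in each direction without overlap between groups, the 2 longest and 2 shortest, the 2 most and 2 least variable and the 2 on either side of the cut-off; others are said to be chosen later. The other 3 called genes were added to complete the 13. The 9151 locus tags were all found in the ASM2599979v1 annotation, used only for symbols. Alternatives were other scalings and filters, DESeq2 1.42.0, limma 3.58.1 on log2(FPKM + 1) and log2(FPKM + 0.1), the replicate number as a block, cut-offs of 100 and 500 counts and the removal of each library.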

Additional observations from a re-analysis of the deposited data

How the results depend on the processing

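Calls numbered 348 to 2829 over all genes, 2 to 35 among added genes and 315 to 2583 among annotated genes above the cut-off when 1 library was left out, against 1084, 13 and 997; the highest count of each came without metal-ion replicate 2. RLE factors, total counts, both other filters, DESeq2 and limma gave 12 to 18 added genes (9.92 to 14.9%), beside 10.5 to 16.4% of all genes tested in those fits. With total counts alone the split over all genes was 860 up and 344 down, against 603 and 481. The replicate numbers are not stated to pair the samples. Deviations from the group means correlated at 0.04, 0.19 and 0.098 between libraries of the same number, and 5 of 6 libraries correlated best with their own number. With the replicate number as a block, 20 added genes passed (16.5%), 18 up (14.9%) and 2 down (1.65%), including all 13. Beside them 1365 of all tested genes passed (15.1%), 8.06% up and 7.03% down. NewGene_521 passed in that fit (log2 fold change -0.32, edgeR adjusted p = 0.0420). A cut-off of 500 counts left 63 members, of which 6 passed (9.52%), beside 12.0% of all tested genes. The median level of these 63 members was 13.3 FPKM and their median implied length 1930 bases. A cut-off of 100 counts gave 201 members with medians of 5.58 FPKM, 1559 bases and a CV of 15.4%. Of these, 15 passed (7.46%), 14 up and 1 down, beside 12.0% of all tested genes, 6.66% up and 5.32% down. How many of the 201 reached that cut-off only through metal-ion libraries was not counted, so the direction is no result about them. The CV on FPKM was 14.1%, against 12.7% on CPM, and 10.8 to 13.7% without 1 library. The median log2 fold change of added genes was 0.28 with total counts and also with limma on log2(FPKM + 0.1), and 0.13 to 0.27 without 1 library. The share of counts was 0.591% in metal-ion and 0.551% in control libraries for members alone, and 0.378% and 0.310% without NewGene_80, an alternative added after the data were seen, as was the restriction to members with a mean count of at least 200 in each group. Among named genes that did not pass, signs turned as follows. NewGene_881 had 0.10 with total counts and with limma at either pseudocount, 0.0048 with the filter at a mean of 50 counts, and -0.11 to 0.11 without 1 library. NewGene_897 had -0.20 with the replicate block, -0.13 with limma on log2(FPKM + 1) and -0.14 on log2(FPKM + 0.1), and -0.54 to 0.55 without 1 library. NewGene_542 had 0.042 with total counts, 0.043 with limma on log2(FPKM + 1) and 0.045 on log2(FPKM + 0.1). NewGene_491 had -0.0019 with RLE, -0.0013 with DESeq2 and -0.076 to 0.089 without 1 library. Without 1 library NewGene_792 had -0.0046 to 0.20 and NewGene_136 -0.041 to 0.30. The cause of these shifts was not tested.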
